A study of Mus musculus with 10 samples.

Results

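The genes that encode the proteins of the cytosolic ribosome were compared between Dp3Yah mice and control littermates in the adult hippocampus. They were chosen by symbol, as the genes named Rpl or Rps followed by a number (with the suffix a, l or x), together with Rplp0, Rplp1, Rplp2 and Rpsa. RefSeq lists 83 such genes, and 59 of the 19939 genes measured here were among them, 37 of the large (60S) subunit and 22 of the small (40S) subunit. RefSeq annotates 2 of the 83, Rps4l and the unmeasured Rpl6l, as pseudogenes. Total RNA of the whole hippocampus (both sides) was measured on Affymetrix microarrays, with 1 array for each of 5 Dp3Yah males and 5 littermate control males, all 16 weeks old. The labels give C57BL/6N as the background of all 10 mice, while the study's methods describe backcrossing to C57BL/6J. Dp3Yah mice are a partial Down syndrome model that carries an additional copy of the mouse chromosome 16 interval between Hspa13 and App, with App itself outside it, and the controls lack it. None of the 83 genes lies in the duplicated interval (chr16:75755190-84863783, GRCm38.p6). The comparison therefore asks whether genes outside the interval, spread over 17 chromosomes, differed between the genotypes.

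Most ribosomal proteins are made in equal numbers for each particle, and their messages are among the most abundant of a cell and are usually held at similar levels to one another. Most of these messages begin with a 5′ terminal oligopyrimidine (5′TOP) tract, a cytosine followed by a run of pyrimidines, through which mTORC1 and the RNA-binding protein LARP1 control how much of each message is translated. In neurons, ribosomal protein messages are also found in dendrites and axons, and local protein synthesis takes part in synaptic plasticity in the hippocampus. Loss of 1 copy of some of these genes causes Diamond-Blackfan anaemia in humans.

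RefSeq promoter windows (250 bases before to 50 after an annotated start, GRCm38.p6) matched 47 of the 59 genes, with 56 windows. A C followed by at least 4 letters that were C or T, starting within 5 bases of the annotated start on the gene's strand, was present in 20 of the 56 windows (35.7%), against 18.3% of all 32851 windows. The ETS-family letters CCGGAAG, on either strand, were in 33.9% of the members' windows and 8.86% of all windows, and TATAAA, on either strand, in 10.7% and 13.6%. The letters AAGATGG, the core of the YY1 motif, on either strand, were in 7.14% of the members' windows and 6.34% of all windows. The bases around the start of 5 genes discussed below are shown from 10 bases before the start to 14 after it, 5′ to 3′ on the gene's strand, with the pyrimidine tract in capitals.
Rpl28 (chr7:4792955-4792979, plus strand): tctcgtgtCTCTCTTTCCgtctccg
Rplp2 (chr7:141447641-141447665, plus strand): cagcgtCTTCCTTTCgccgccggac
Rps10 (chr17:27635230-27635254, minus strand): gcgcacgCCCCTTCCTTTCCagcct
Rps15a (chr7:118116133-118116157, minus strand): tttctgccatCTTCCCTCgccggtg
Rps6 (chr4:86857353-86857377, minus strand): gaagtcgggCCTCTTTTTCgtgacg
The 18 genes with such a tract had a median log2 difference of 0.018 (11 above 0), and the 29 with a window but no tract had a median of 0.027 (25 above 0). The search depends on the annotated start, so genes without a tract here may still carry one. These classes therefore do not separate 5′TOP messages from others. The 12 genes without a window, which include Rpl8 and Rpl29, had a median of -0.0062 (5 above 0).

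The values are log2 levels, and each difference is the Dp3Yah mean minus the control mean. The median of an array over all probe sets lay between 5.64 and 5.71, no pair of arrays was identical, and the median within-group SD over all genes was 0.087. Dentate granule and pyramidal cell markers were detected as the tissue label requires (9 of 10 and 7 of 8 measured markers lay above the median gene), and choroid plexus markers varied widely in both genotypes, with per-mouse means from 6.05 to 7.74 in Dp3Yah mice and 5.99 to 7.86 in controls. In whole tissue, fewer cells of a type and less RNA per cell cannot be told apart.

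No ribosomal protein gene was called in Dp3Yah hippocampi. The test was limma over all 19939 genes (two-sided, Benjamini-Hochberg adjusted p under 0.05, n = 5 per group), which called 3 genes higher (0.015% of those tested) and none lower (0%). The smallest adjusted p of a ribosomal protein gene was 0.922. At an unadjusted p under 0.05, 1 of the 59 genes was higher, against 2.49% of all genes, and 1 was lower, against 2.59%. These were Rpl8 and Rpl29. The rank test of fold changes that the study used, rewritten here, put none of the 59 past its thresholds, against 2.54% of all genes on the higher side and 2.05% on the lower. Of the 59 genes, 53 lay above the median level of all genes, which was used as a filter on low values. The 6 that did not pass it were Rpl3l, Rpl10l, Rpl12, Rpl30, Rpl39l and Rplp2, each with a single probe set of its own.

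The differences of the probe sets used were small and their intervals narrow. An interval describes the probe set that stands for a gene. Only 27 of the 59 were placed at the gene's own locus by the identifier order described below. The 95% intervals of 57 of the 59 genes lay wholly within a 1.2-fold change in either direction, as did those of 88.3% of all genes. This bound was chosen after seeing the data. The 57 include the 6 genes below the filter on low values, whose intervals describe dim probe sets. Of the 53 genes above that filter, 51 had such intervals, against 83.0% of all genes above it. The exceptions were Rpl14 and Rps15a, whose levels varied most between mice. The interval bounds of all 59 genes lay between 0.858-fold and 1.26-fold. The median SD between mice of a group was 0.066 for large subunit genes and 0.070 for small subunit genes, and 39 of the 59 genes varied less than the median gene.

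**Figure D1:**
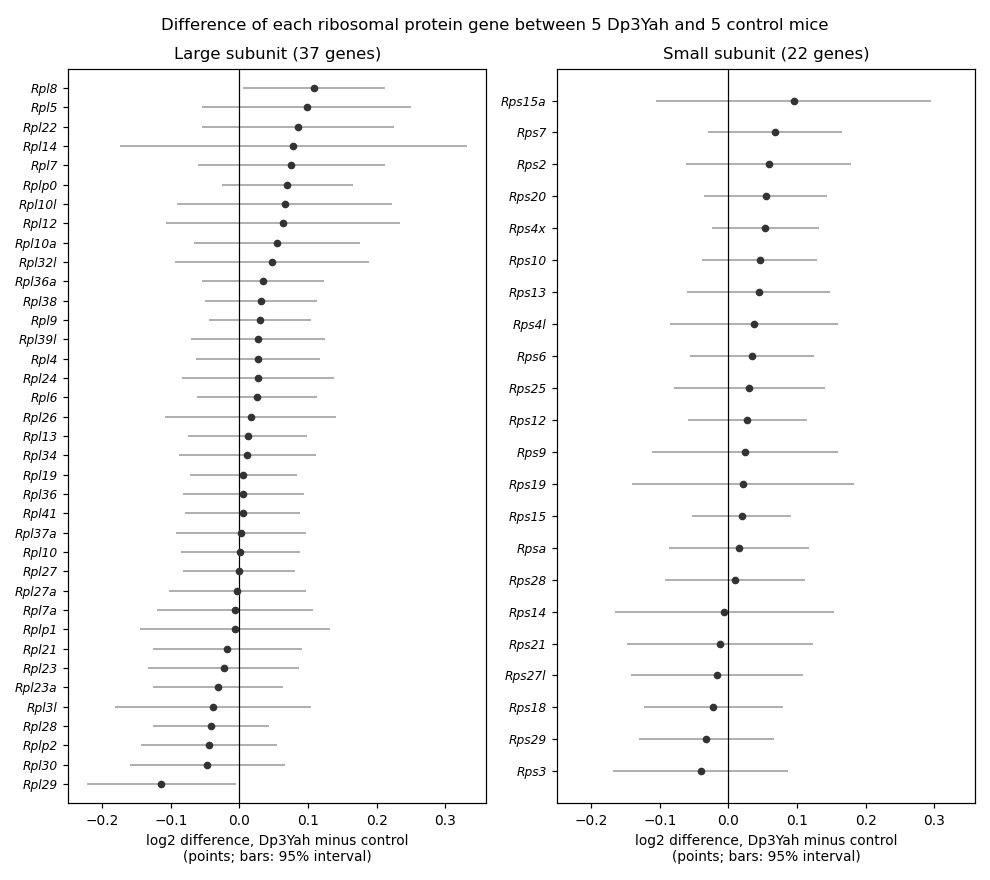
Log2 difference between 5 Dp3Yah and 5 control mice for each of 37 large subunit (left) and 22 small subunit genes (right), as points with 95% intervals from limma. The points run from -0.11 (Rpl29) to 0.11 (Rpl8), and only the intervals of these 2 genes do not cross 0.

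More members had a difference above 0 than below it in both subunits. In the large subunit 25 of 37 genes were above 0 (median 0.012), and in the small subunit 16 of 22 (median 0.025), whereas 46.8% of all genes were above 0 (median -0.0047). The balance of the large subunit moved with the scaling of the arrays, to 29 of 37 after median centring and 21 of 37 after a second quantile normalisation, and that of the small subunit to 17 and 15 of 22. It also moved with single mice. The large subunit count was 19 of 37 without Dp3Yah replicate 2 (median 0.0033), and the small subunit count was 12 of 22 without control replicate 1 (median 0.0095).

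The per-mouse mean of the 37 large subunit genes was 9.77, 9.83, 9.82, 9.80 and 9.81 in Dp3Yah mice, against 9.77, 9.79, 9.79, 9.79 and 9.80 in control mice. The groups overlapped, since the lowest Dp3Yah mouse (replicate 1) was level with the lowest control, while 3 Dp3Yah mice lay above all controls. The group means were 9.81 ± 0.022 in Dp3Yah mice and 9.79 ± 0.0083 in control mice (SD, n = 5 each). The mean of the 22 small subunit genes was 10.46, 10.48, 10.45, 10.41 and 10.46 in Dp3Yah mice, against 10.38, 10.44, 10.41, 10.46 and 10.45 in control mice. Here Dp3Yah replicate 4 was at the level of the second lowest control, and control replicate 1 was below every other mouse. The group means were 10.45 ± 0.025 in Dp3Yah mice and 10.43 ± 0.032 in control mice. The difference of the means, 0.017 for the large and 0.023 for the small subunit, was about as large as the spread between mice of a group (pooled SD 0.017 and 0.029).

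**Figure D2:**
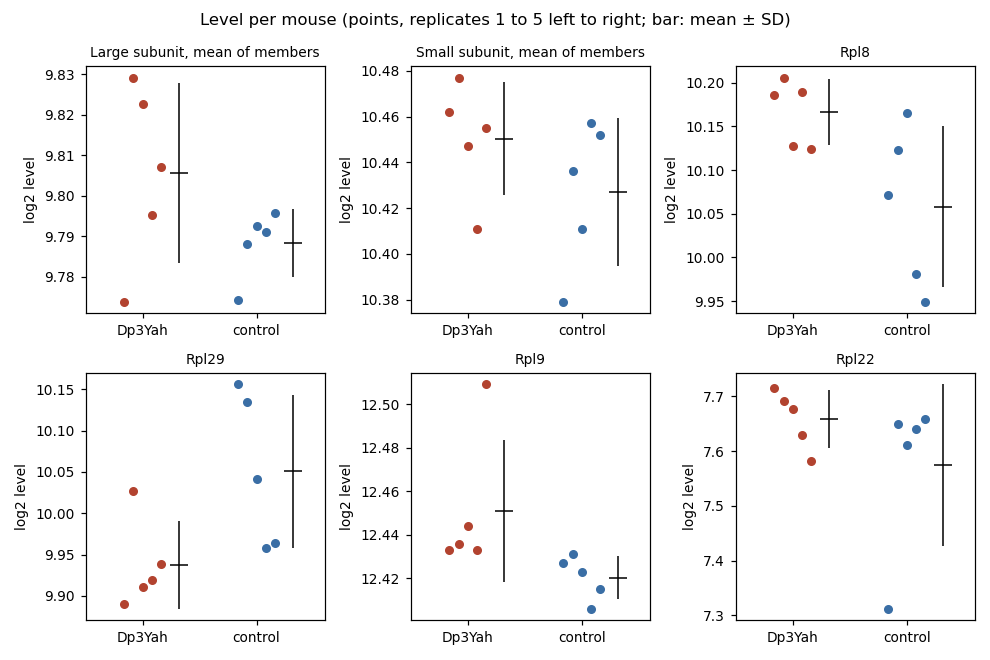
Log2 level in each mouse (points, replicates 1 to 5 from left to right, Dp3Yah left of control) with mean ± SD, for the mean of the large and of the small subunit genes and for Rpl8, Rpl29, Rpl9 and Rpl22. The vertical axes do not start at 0 and differ between panels. Only in the Rpl9 panel do the groups not overlap, and in the Rpl22 panel control replicate 1 lies far below the other 9 mice.

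2 mice stood apart across the family. In Dp3Yah replicate 2, 13 of the 59 genes had their highest value of the 10 mice and 2 their lowest, although 23.8% of all genes had their lowest value in that mouse and it received the lowest weight of the 10 arrays (0.479). In control replicate 1, 21 of the 59 genes had their lowest value and 5 their highest, whereas 7.26% of all genes had their lowest value there. Of the 22 small subunit genes, 3 lay above their own 10-mouse mean in control replicate 1. In Dp3Yah replicate 4, none of the 59 genes was the highest or the lowest of the 10 mice.

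**Figure D3:**
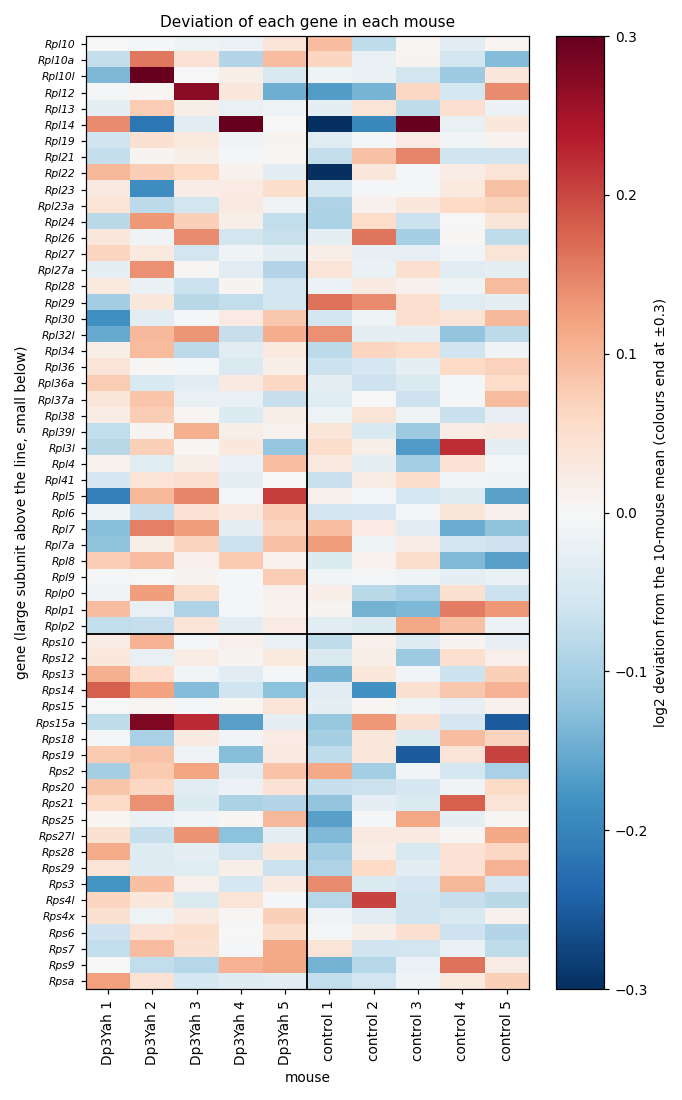
Deviation of each gene (rows) in each mouse (columns, Dp3Yah left of control) from the gene's mean over the 10 mice, on the log2 scale, with colours ending at 0.3 in either direction. The column of control replicate 1 is mostly blue below the line that separates the subunits, and Rpl14 reaches the ends of the colour scale in mice of both genotypes.

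Rpl8, a protein of the large subunit near the peptidyl transferase centre (chr15:76904071-76906318, GRCm38.p6), measured 10.19, 10.21, 10.13, 10.19 and 10.12 in Dp3Yah mice, against 10.07, 10.12, 10.17, 9.98 and 9.95 in control mice. 3 of the 5 Dp3Yah values were above every control, and the other 2 lay below control replicate 3. The log2 difference was 0.11 (SE 0.048, 95% interval 0.0050 to 0.21, 1.08-fold, unadjusted p = 0.041, limma adjusted p = 0.922). Leaving out single mice moved it between 0.081 and 0.14. Rpl29, a peripheral protein of the large subunit that also occurs at the cell surface as a heparin-binding protein (chr9:106428889-106431568), measured 9.89, 10.03, 9.91, 9.92 and 9.94 in Dp3Yah mice, against 10.16, 10.13, 10.04, 9.96 and 9.96 in control mice. 4 of the 5 Dp3Yah values were below every control, and Dp3Yah replicate 2 lay among the controls. The log2 difference was -0.11 (SE 0.050, 95% interval -0.22 to -0.0056, 0.924-fold, unadjusted p = 0.041, limma adjusted p = 0.922). A further 35 probe sets carried the symbol Rpl29 together with other genes, and all 35 had a negative difference, from -0.11 to -0.048. Whether these probe sets measure different transcripts was not tested, so they are not counted as separate evidence.

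Rpl9 was the only member whose groups did not overlap. Every Dp3Yah array lay above every control array, as for 0.522% of all genes, and for no member did every Dp3Yah array lie below, as for 0.391%. Rpl9 measured 12.433, 12.436, 12.444, 12.433 and 12.509 in Dp3Yah mice, against 12.427, 12.431, 12.423, 12.406 and 12.415 in control mice. The lowest Dp3Yah value, 12.433, lay just above the highest control, 12.431, and the difference of 0.031 (SE 0.034, limma adjusted p = 0.951) was 0.016 without Dp3Yah replicate 5. All 8 probe sets of Rpl9 had a positive difference, from 0.031 to 0.055. The groups overlapped in every probe set except the one used, and so also in the one placed at the gene's own locus. Whether the 8 measure different transcripts was not tested, so they are not counted as separate evidence.

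Other large subunit genes with the smallest unadjusted p above 0 were Rplp0, Rpl5, Rpl22 and Rpl7. Rplp0, which anchors the P stalk where elongation factors bind, measured 11.18 to 11.32 (median 11.21) in Dp3Yah mice and 11.10 to 11.24 (median 11.13) in control mice, with a log2 difference of 0.070 (SE 0.044, limma adjusted p = 0.922). Its partners Rplp1 and Rplp2, the acidic proteins of the stalk, had differences of -0.0067 and -0.044. Rpl5, which carries 5S rRNA into the ribosome together with Rpl11 and binds MDM2 when assembly fails, measured 10.35, 10.66, 10.70, 10.55 and 10.76 in Dp3Yah mice, against 10.57, 10.55, 10.50, 10.52 and 10.39 in control mice. Its difference was 0.098 (SE 0.070, limma adjusted p = 0.938), and 0.16 without Dp3Yah replicate 1, the lowest of the 10 mice. All 5 probe sets of Rpl5 had a positive difference, from 0.098 to 0.17, and these too are not counted as separate evidence. Rpl22, which also binds RNA outside the ribosome and affects lymphocyte development in mice, had a difference of 0.085 (SE 0.065), and 0.020 without control replicate 1. Rpl7 had a difference of 0.076 (SE 0.063).

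Below 0 in the large subunit, after Rpl29, the smallest unadjusted p values were those of Rpl28, Rplp2, Rpl30 and Rpl23a, with differences between -0.047 and -0.031. Rpl28 measured 12.08 to 12.17 (median 12.12) in Dp3Yah mice and 12.13 to 12.24 (median 12.16) in control mice, and 3 of 5 Dp3Yah mice lay below all controls (difference -0.041, SE 0.039, limma adjusted p = 0.945). Rpl23a, a protein at the exit of the nascent peptide tunnel that contacts the signal recognition particle, had a difference of -0.031 (SE 0.044). Of the 8 tunnel exit proteins listed, 4 were measured, 3 of them above 0. Rpl14 varied most in the large subunit, with 7.73, 7.38, 7.56, 7.89 and 7.59 in Dp3Yah mice against 7.26, 7.40, 7.91, 7.57 and 7.62 in control mice, so that its difference of 0.079 (SE 0.12) was smaller than its spread (within-group SD 0.22). Rpl12, the base protein beside the stalk, measured 4.98, 4.99, 5.26, 5.02 and 4.84 in Dp3Yah mice, against 4.82, 4.85, 5.05, 4.93 and 5.13 in control mice (difference 0.064, SE 0.078). This probe set did not pass the filter on low values. The 8 probe sets that Rpl12 shares with other genes, of which 7 had mean levels of 11.8 to 12.4, had differences of 0.013 to 0.045. For Rpl30, likewise below the filter, the 10 shared probe sets had mean levels of 10.3 to 10.9 and differences of -0.086 to -0.037.

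In the small subunit no gene had an unadjusted p under 0.05. The smallest above 0 were those of Rps7, Rps4x, Rps20, Rps10 and Rps2, with differences between 0.046 and 0.069. Rps7, which takes part in 18S rRNA maturation, measured 11.50, 11.67, 11.62, 11.57 and 11.69 in Dp3Yah mice, against 11.62, 11.52, 11.52, 11.56 and 11.50 in control mice (difference 0.069, SE 0.045, limma adjusted p = 0.928). Rps4x, encoded on the X chromosome, measured 11.23 to 11.31 (median 11.27) in Dp3Yah mice and 11.18 to 11.25 (median 11.21) in control mice, and 3 of 5 Dp3Yah mice lay above all controls (difference 0.054, SE 0.036, limma adjusted p = 0.929). Rps10, at the head of the 40S subunit, likewise had 3 of 5 Dp3Yah mice above all controls (difference 0.046, SE 0.039). Below 0 the smallest were those of Rps29, Rps3, Rps18, Rps27l and Rps21, with differences between -0.040 and -0.012. Rps3, at the mRNA entry channel and also a DNA repair endonuclease, measured 9.90 to 10.17 (median 10.10) in Dp3Yah mice and 10.03 to 10.22 (median 10.04) in control mice, so that its median was higher in Dp3Yah mice although the difference of the means was -0.040. Of the 10 measured proteins of the 40S head, 7 were above 0 and none was called.

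Rps6, the substrate of S6 kinase whose phosphorylation is widely used as a readout of mTORC1, measured 13.09, 13.20, 13.21, 13.16 and 13.21 in Dp3Yah mice, against 13.15, 13.17, 13.20, 13.09 and 13.07 in control mice. The groups overlapped over most of their range (difference 0.034, SE 0.042, limma adjusted p = 0.957). Rpsa, which is also the laminin receptor, had a difference of 0.016 (SE 0.047). The widest spreads in the small subunit were those of Rps15a, Rps19 and Rps14. Rps15a, which binds 18S rRNA, measured 8.42, 8.77, 8.72, 8.33 and 8.47 in Dp3Yah mice, against 8.38, 8.62, 8.54, 8.45 and 8.25 in control mice (difference 0.095, SE 0.092), and its difference was 0.037 without Dp3Yah replicate 2. Rps19, the gene most often mutated in Diamond-Blackfan anaemia, measured 9.63 to 9.85 (median 9.79) in Dp3Yah mice and 9.51 to 9.97 (median 9.80) in control mice. All 5 measured genes of the 10 listed for that disease were above 0 (median 0.046), against 46.8% of all genes, and none was called. Other genes of that list had only probe sets shared with other genes. At the brightest of these, Rpl11 (0.042), Rps24 (0.011) and Rpl35a (0.011) were above 0 and Rps26 (-0.046) was below.

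Copies of ribosomal protein genes gave no call either. Rpl3l, which replaces Rpl3 in striated muscle, had a difference of -0.038 (SE 0.066). Rpl10l and Rpl39l, which serve male germ cells, had differences of 0.066 (SE 0.072) and 0.027 (SE 0.045). All 3 lay below the filter on low values. Rps27l, a p53 target in humans, had a difference of -0.017, and Rps4l, which RefSeq annotates as a transcribed pseudogene, one of 0.037. The 2 members on chromosome 16 but outside the duplication were Rpl39l and Rpl24, and Rpl24, a protein of the subunit interface, measured 9.64 to 9.85 (median 9.73) in Dp3Yah mice and 9.62 to 9.77 (median 9.72) in control mice (difference 0.027, SE 0.051). By the identifier order described below, this Rpl24 probe set is placed on chromosome 11. A dimmer one placed on chromosome 16 had a difference of 0.022 (SE 0.045).

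Ribosomal protein genes have many processed copies in the genome, and 42 of the 59 members have pseudogenes named after them in RefSeq (237 in all). This bears on which probe set stands for a gene. A total of 39 members had more than 1 probe set annotated to them alone, up to 14 for Rps12, and the one with the highest mean was used. The positions of probe sets were not used, but their identifiers run in genome order. For 98.2% of the other genes, the 10 neighbours by identifier lay mostly on the gene's chromosome and within 5 Mb of it. For the members this held for 27 of 59 (45.8%). Rps12 counts among the 27, but the 6 neighbours of its probe set on chromosome 10 were themselves annotated to Rps12. The place of that probe set therefore cannot be read from its neighbours. The probe set of Rpl29 had all 10 neighbours on chromosome 15, that of Rpl9 had 9 of 10 on chromosome 2 and that of Rps6 had all 10 on the X chromosome, while Rpl8 was measured by a probe set among its own neighbours. One probe set, used for Rpl21, had neighbours in the duplicated interval on chromosome 16, and its difference was -0.018 (SE 0.050).

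When each member was instead represented by its brightest probe set at its own place, an alternative chosen after seeing the data, 54 of the 59 genes could be measured and 27 of them changed probe set. Of the large subunit, 21 of 32 were then above 0 (median 0.027), and of the small subunit 15 of 22 (median 0.024), with none called and Rpl8 again the only one with an unadjusted p under 0.05. Of the 27, 7 changed sign (Rpl10, Rpl19, Rpl23, Rpl36, Rps18, Rps4l and Rpsa), with the largest move 0.086. Rpl29 has no such probe set. Rps12 kept its probe set (difference 0.027), whose place is uncertain. A dimmer Rps12 probe set, with 9 of 10 neighbours on chromosome 10, had a difference of 0.0048. Among the 39 members with several probe sets, those of 22 genes all had the same sign.

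**Figure D4:**
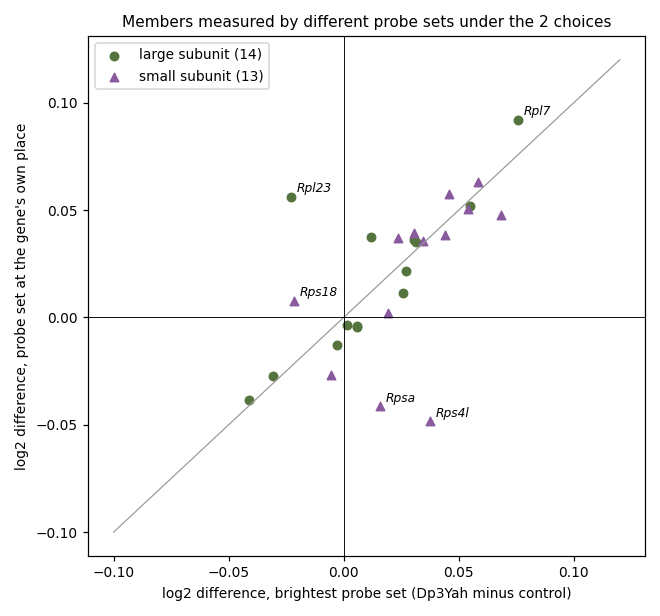
Log2 difference (Dp3Yah minus control) of the 27 members whose probe set differs between the choices, with the brightest probe set on the horizontal axis, the one at the gene's own place on the vertical axis and the line of equality in grey. Most genes lie near the line, while Rpl23, Rps18, Rpsa and Rps4l lie in quadrants of opposite sign.

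Of the 215 probe sets annotated to 1 member alone, 140 were above 0, against 47.2% of all probe sets. Some of them, such as those of Rpl41, had identical values, so they are not separate measurements. In a fit over all 35556 probe sets, 3 of the 215 had an unadjusted p under 0.05. Of all probe sets, 2.22% were higher and 2.42% lower at that p. The third, beside those of Rpl8 and Rpl29, was a dimmer probe set of Rps21 with neighbours on chromosome 16 outside the duplicated interval (difference 0.23, SE 0.077, limma adjusted p = 0.963), whereas the Rps21 probe set at its own place on chromosome 2 had -0.012. A further 16 genes that fit the rule had only probe sets shared with other genes, and 12 of them were above 0 at the brightest such probe set, from -0.050 to 0.097. The highest was Rpl3, a large subunit protein near the peptidyl transferase centre, whose 7 shared probe sets had differences of 0.091 to 0.11, 4 of them with an unadjusted p under 0.05 (limma adjusted p = 0.963 at the brightest). The other 8 genes were not analysed here.

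Genes that work with the ribosome were compared in the same way. Of 36 measured translation initiation and elongation factors, 29 were above 0 (median 0.033) and none was called. Eif3e, a subunit of the initiation factor eIF3, had the largest difference at 0.24 (9.55 in Dp3Yah mice and 9.31 in control mice, SE 0.072, unadjusted p = 0.0057, limma adjusted p = 0.922), and Eif3f, of the same complex, had 0.099 (SE 0.040, unadjusted p = 0.028). Of 13 measured other 5′TOP messages, 10 were above 0 (median 0.028). That list repeats Eef1a1, Eef1b2, Eef1d, Eef1g, Eef2, Eif3e, Eif3f and Eif3h from the previous list. It also holds Npm1 and Fau, which recur in lists below, so these counts are not independent. Of 11 measured genes that control TOP translation, 7 were below 0 (median -0.029), and Eif4ebp2, a repressor of cap-dependent initiation that is prominent in the brain, had -0.20 (8.70 in Dp3Yah mice and 8.90 in control mice, SE 0.056, unadjusted p = 0.0032, limma adjusted p = 0.922), with 4 of 5 Dp3Yah mice below all controls. Ribosome biogenesis genes were evenly divided, 27 of 50 above 0 (median 0.0047). In that list the 18S rRNA dimethyltransferase Dimt1 had 0.27 and Ltv1, an assembly factor of the 40S subunit, had -0.11, each without overlap between the groups and neither called. Every Dp3Yah array lay above every control array for 0.522% of all genes, and below for 0.391%. The 10 ribosome quality control genes had a median of -0.0014. Ribosomal protein genes whose names fall outside the symbol rule and that were measured alone gave -0.022 for Fau, -0.0030 for Rpl7l1 and -0.00056 for Rps3a1.

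Of the 77 measured mitochondrial ribosomal protein genes, 49 were above 0 (median 0.021), close to the cytosolic family. At an unadjusted p under 0.05, 6 were higher, among them Mrpl39, and 1 lower, against 2.49% and 2.59% of all genes. Mrpl39, the one gene of that family within the duplicated interval, was called (difference 0.48, limma adjusted p = 0.00336). Genes above the median level, to which most ribosomal protein genes belong, were above 0 in 53.1% of cases (median 0.0051).

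**Figure D5:**
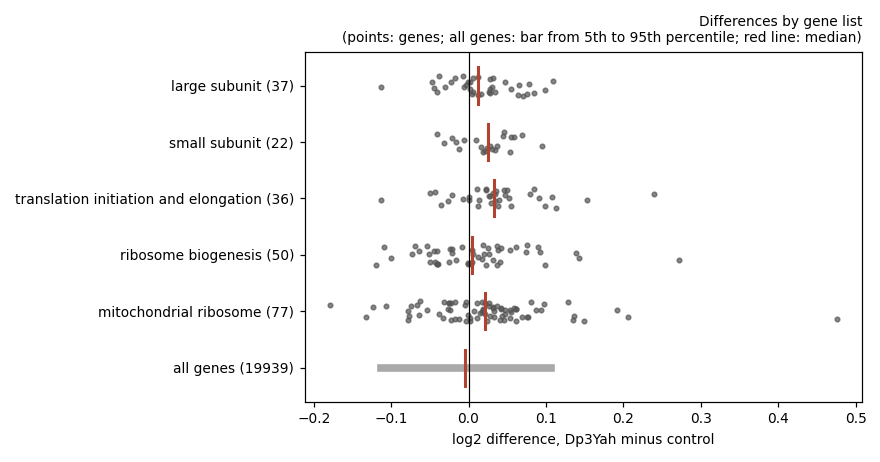
Log2 difference (Dp3Yah minus control) of each gene of the large and small ribosomal subunits and of 3 related lists (points), with the 5th to 95th percentile of all 19939 genes as a bar and medians as red lines. The medians of the subunits are 0.012 and 0.025, and the point at 0.48 is Mrpl39.

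No cell type marker was called, and the per-mouse means of the lists below overlapped between the genotypes. Microglial markers were above 0 in 10 of 10 genes, 3 of them with an unadjusted p under 0.05 (2.49% of all genes were higher at that p). Their per-mouse means were 7.95 to 8.17 in Dp3Yah mice and 7.86 to 7.98 in control mice. Pyramidal cell markers were above 0 in 7 of 8 (8.40 to 8.65 in Dp3Yah mice, 8.27 to 8.50 in control mice). Dentate granule cell markers were below 0 in 8 of 10 (7.80 to 8.10 in Dp3Yah mice, 7.97 to 8.23 in control mice). Of these, 4 had an unadjusted p under 0.05, where 2.59% of all genes were lower. Markers of the other cell types were above 0 in 8 of 10 (astrocytes), 5 of 9 (oligodendrocytes), 3 of 10 (endothelial and mural cells), 5 of 10 (interneurons), 1 of 10 (neocortex and subiculum), 8 of 10 (choroid plexus) and 7 of 8 genes (ependymal cells). Their part in the small differences of the ribosomal protein genes was not tested.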

How the data were processed

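Per the labels and the study's methods, total RNA was labelled and hybridised to Affymetrix Mouse Gene ST arrays, 1 per mouse. The deposited values are log2 levels per probe set. The submitters' processing notes name RMA, limma and the mm10 build, with versions not given in the sources used here. Quantile normalisation within RMA sets all arrays to 1 distribution, so only relative changes are measured, and the number of arrays limits the precision. Of 35556 probe sets, 21789 were annotated to 1 gene, 1621 to several and 12146 to none. Where several probe sets named 1 gene alone, the brightest on average stood for it, giving 19939 genes. Symbols and positions came from RefSeq (GRCm38.p6), matched by gene identifier. Groups were compared in R 4.3.3 with limma 3.58.1 (lmFit, eBayes, no covariate, two-sided, Benjamini-Hochberg over all genes), checked on simulated data. The labels name separate mice.

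Named members were Rpl8 and Rpl29, the 5 smallest p of each direction and the 3 widest spreads per subunit, members without overlap, and a fixed set of copies, chromosome 16 genes and well-known members. The members, lists and rules were chosen with earlier results of these data known. Intervals are at the 95% level. The 1.2-fold bound was chosen after seeing the data. Other settings tried were the replicate number as a block, the mean of a gene's probe sets, every probe set tested, genes above the median level alone, quantile normalisation once more, median centring, array weights, a robust variance with a trend, the rank test (25 pairs of mice, trim 0.25, thresholds 0.025 and 0.975), platform symbols and leaving out each mouse. After seeing the data, probe sets at a gene's own place were added.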

Additional observations from a re-analysis of the deposited data

Results flagged for a closer look

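Single mice stood far from the other 4 of their group in 4 of the 72 group values examined (34 named members and the means of both subunits, in each genotype). Chance flags about 1 in 20 (3.6 of 72) among groups not chosen by their values. Some named members were chosen by p, spread or lack of overlap, so the 4 cannot be judged against that rate. The gap to the nearest mouse, as a share of the group's range, was compared with a limit of 0.71. Rpl22 was low in control replicate 1 (7.31 against 7.61 to 7.66, share 0.863), and its difference of 0.085 was 0.020 without that mouse. Rpl9 was high in Dp3Yah replicate 5 (12.51 against 12.43 to 12.44, share 0.86). Rps18 was low in Dp3Yah replicate 2 (11.14 against 11.23 to 11.27, share 0.718). Rps4l was high in control replicate 2 (8.23 against 7.94 to 7.96, share 0.907), and its difference of 0.037 was 0.093 without that mouse.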

How the results depend on the processing

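No member was called by any of the 21 alternatives, including the rank test and every leave-one-out fit, and the lowest limma adjusted p of a named member over them was 0.723 (Rpl8). The median differences of both subunits stayed above 0 in all of them, from 0.0033 to 0.027 for the large and 0.0095 to 0.036 for the small subunit, and moved by less than the spread between mice. Of 34 named members, 23 kept their sign throughout.

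The number of all genes called was 3, and 1 with all probe sets tested, 6 with a trended variance, 5 with array weights and 915 with the rank test, which has no adjustment over genes. Members at an unadjusted p under 0.05 were 1 higher and 1 lower. They were 0 higher with the replicate block, the filter, median centring or the second quantile normalisation, and 0 lower with the filter, median centring or the own-locus probe sets (added after seeing the data). With all 448 probe sets that carry a member symbol, 6 were higher, against 2.22% of all probe sets, and 4 lower, against 2.42%. Of the 448, 172 of the large and 100 of the small subunit were above 0 (47.2% of all probe sets), and 1 lay below all controls. The count of members above all controls was 0 with the mean of all probe sets, the own-locus probe sets or the second quantile normalisation. Leaving out single mice gave 1 to 4 genes called, 0 to 2 members higher and 0 to 1 lower at that p, 1 to 2 above and 0 to 1 below all controls. The matching shares of all genes in these fits are not given here, so these member counts cannot be judged against a background. Groups with a mouse left out also separate more easily by chance than the full groups. A single gene was called when Dp3Yah replicate 4 or any of control replicates 3, 4 and 5 was left out. The member count on the higher side was 0 when Dp3Yah replicates 2 or 4, or controls 1, 4 or 5, were left out singly, and on the lower side 0 when any Dp3Yah mouse other than replicate 2, or controls 1, 2 or 3, were left out singly.

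Signs turned for Rplp1 (0.0041) and Rps14 (0.0052) with median centring. They turned for Rps21 (0.11), Rps4l (-0.0055) and Rpsa (-0.038) with the mean of all probe sets, and for Rps18 (0.0076), Rps4l (-0.048) and Rpsa (-0.041) with own-locus probe sets. Leaving out single mice gave -0.0075 to 0.11 for Rpl10l, -0.0020 to 0.051 for Rpl24, -0.085 to 0.013 for Rpl3l, -0.043 to 0.031 for Rplp1, -0.052 to 0.026 for Rps14, -0.039 to 0.074 for Rps19, -0.048 to 0.031 for Rps21, -0.052 to 0.012 for Rps27l and -0.013 to 0.036 for Rpsa. These causes were not tested.

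In the sample titles, mice of the same replicate number share only that number. Whether they came from the same litter or were processed together is not stated there. Deviations of same-numbered mice correlated at 0.044, -0.36, 0.065, 0.20 and 0.32, and 4 of 10 mice correlated best with their own number. With the replicate block 3 genes were called, none of them a member.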
